A study of Homo sapiens with 60 samples.

Results

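The 10 genes described here are brakes and transcriptional outputs of the extracellular signal-regulated kinase (ERK) pathway. They are the dual-specificity phosphatase genes DUSP1, DUSP4, DUSP5 and DUSP6, the Sprouty genes SPRY2 and SPRY4, the Sprouty-related genes SPRED1 and SPRED2, and the ETS transcription factor genes ETV4 and ETV5. They were picked by name from the 60675 gene rows of an expected-count table. All 10 passed the filter on low counts, and the smallest count of any of them in any library was 175. SW1783, an established human astrocytoma cell line, was treated for 24 h with ethanol extracts of herbs or of traditional herbal formulas, and messenger RNA was sequenced in 60 libraries. Polygalae Radix (root of Polygala) was given at 1.2, 6 and 30 µg/mL and Aucklandiae Radix (root of Aucklandia) at 6.4, 32 and 160 µg/mL, with 2 libraries per dose. The formulas Guibi-tang and Saengmaek-san, as well as Saposhnikoviae Radix (root of Saposhnikovia) and Menthae Herba (mint), were given at 20, 100 and 500 µg/mL, with 3 libraries per dose. The formula Soyo-san was given at the same 3 doses with 2 libraries each, and the formula Okbyeongpung-san with 1 library each. The doses are called low, medium and high throughout. Vehicle had 3 libraries, labelled as 0.1% DMSO, while the series text names 2% DMSO for the vehicle, and which of these applies was not settled. All groups share the cell line and the 24 h exposure. The labels do not say that replicates are separate cultures, so the p-values below measure the spread between these libraries, which may be technical.

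ERK is the last kinase of the RAS, RAF and MEK cascade that growth factor receptors switch on, and its activity is held in check by proteins whose own genes it induces. Dual-specificity phosphatases remove the activating phosphates from ERK and from the related kinases p38 and JNK, while Sprouty and SPRED proteins act upstream, between the receptor and RAF. ETV4 and ETV5 are ETS factors whose genes are kept down by the repressor Capicua until ERK inactivates it, and transcripts of several of these genes are used in glioma and other tumours as readouts of ERK output. Here only messenger RNA was measured, and no phosphorylation of ERK.

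Library totals ran between 19031094 and 37686975 expected counts, and levels are given as CPM, counts scaled to a common library size, corrected for composition by edgeR's TMM factors. The markers are in CPM of the library total without these factors. Of 14 astrocyte and glioma markers, 6 reached 1 CPM in all 3 vehicle libraries. VIM (4881 CPM), CD44 (2703 CPM) and CHI3L1 (724 CPM) were high, GFAP (0.167 CPM) and S100B (0.143 CPM) were close to 0, and SOX2, AQP4, ALDH1L1 and FABP7 had no count in vehicle. Of the markers of other cell types, 2 of 6 for neurons, 2 of 6 for leukocytes, 2 of 5 for endothelium and 2 of 5 for epithelium reached 1 CPM in all vehicle libraries, and CD3E had no count there. Across the 60 libraries the summed neuron list ran between 27.3 and 59.2 CPM, the leukocyte list between 61.1 and 292 CPM, the endothelium list between 10.1 and 50.5 CPM and the epithelium list between 30.3 and 268 CPM. SW1783 is an established line, so these lists check the cell label only. In vehicle CD68 (175 CPM) and KRT18 (122.5 CPM) made up most of the leukocyte and epithelium sums. The part of these lists in the results below was not tested, and in bulk RNA fewer cells of a type and less RNA per cell cannot be told apart. Libraries fall into sets by their library name: Polygalae Radix shares a set with Aucklandiae Radix, Menthae Herba with Saposhnikoviae Radix, Saengmaek-san with Guibi-tang and Soyo-san with Okbyeongpung-san, and vehicle has a set of its own. In every comparison with vehicle, set and extract therefore cannot be told apart, and the 3 vehicle libraries are shared by all of those comparisons. Comparisons of high with low dose stay within a set. For each library, a line was drawn through the log2 differences of 10300 genes from vehicle against log2 transcript length, and its slope was below -0.15 in 10 libraries, and these are called length-tilted. The steepest were Saposhnikoviae Radix high replicate 2 (-0.44), Okbyeongpung-san high replicate 1 (-0.39), Menthae Herba high replicate 3 (-0.34) and Saposhnikoviae Radix low replicate 3 (-0.32).

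At the high dose, most of these genes were higher than in vehicle with Polygalae Radix and with Guibi-tang, 5 of them with Aucklandiae Radix and with Menthae Herba, and few with Saposhnikoviae Radix and Soyo-san. Genes were called at an adjusted p under 0.05 in edgeR's quasi-likelihood test, with Benjamini-Hochberg adjustment over 19366 tested genes. With Polygalae Radix 8 of 10 members rose and 0 fell, where 48% of all tested genes were called in either direction and 22.4% were called higher. With Guibi-tang 8 rose and 0 fell, against 50.2% of all genes called and 23.6% called higher. With so large a share of all genes called in both extracts, the counts are read against the share called higher. With Aucklandiae Radix 5 rose and 0 fell, against 32.7% of all genes called and 15.7% called higher. With Menthae Herba 5 rose and 0 fell, against 22.8% called and 11.1% called higher, and with Saengmaek-san 4 rose and 0 fell, against 17.4% called and 8.87% called higher. Saposhnikoviae Radix had 1 member called higher, DUSP4, which is near the 12.7% of all genes called and the 8.61% called higher. Soyo-san had DUSP4 called higher and DUSP1 called lower, where 2.91% of all genes were called, 1.62% higher and 1.29% lower. The median log2 fold change of the 10 members was 0.65 with Polygalae Radix, 0.75 with Aucklandiae Radix, 0.23 with Menthae Herba, 0.03 with Saposhnikoviae Radix, 0.14 with Saengmaek-san, 0.86 with Guibi-tang and -0.04 with Soyo-san, while the median of all tested genes lay between -0.02 and 0.03 in these comparisons. Without the length-tilted libraries the members called were 9 with Polygalae Radix, 7 with Aucklandiae Radix, 7 with Menthae Herba and 4 with Saposhnikoviae Radix. They were 6 with Saengmaek-san, 9 with Guibi-tang and 2 with Soyo-san. Of 19015 genes in that fit, 11735 were called with Polygalae Radix, 9539 with Aucklandiae Radix, 5778 with Menthae Herba and 1811 with Saposhnikoviae Radix. With Saengmaek-san 5888 were called, with Guibi-tang 12101 and with Soyo-san 2812. The share of all genes called rose as well in each except Saposhnikoviae Radix. The gains elsewhere are therefore no result about the members. Single libraries moved several counts: 2 members were called with Saengmaek-san without vehicle replicate 2 or 3. With Saposhnikoviae Radix 2 or 3 were called when any 1 of its high libraries was left out. The shares of all genes called in those fits are not given here, so these counts are no result about the members. Without Polygalae Radix high replicate 3, the log2 fold changes of DUSP6, SPRY2 and SPRED1 with that extract were 0.35, 0.34 and 0.455.

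**Figure D1:**
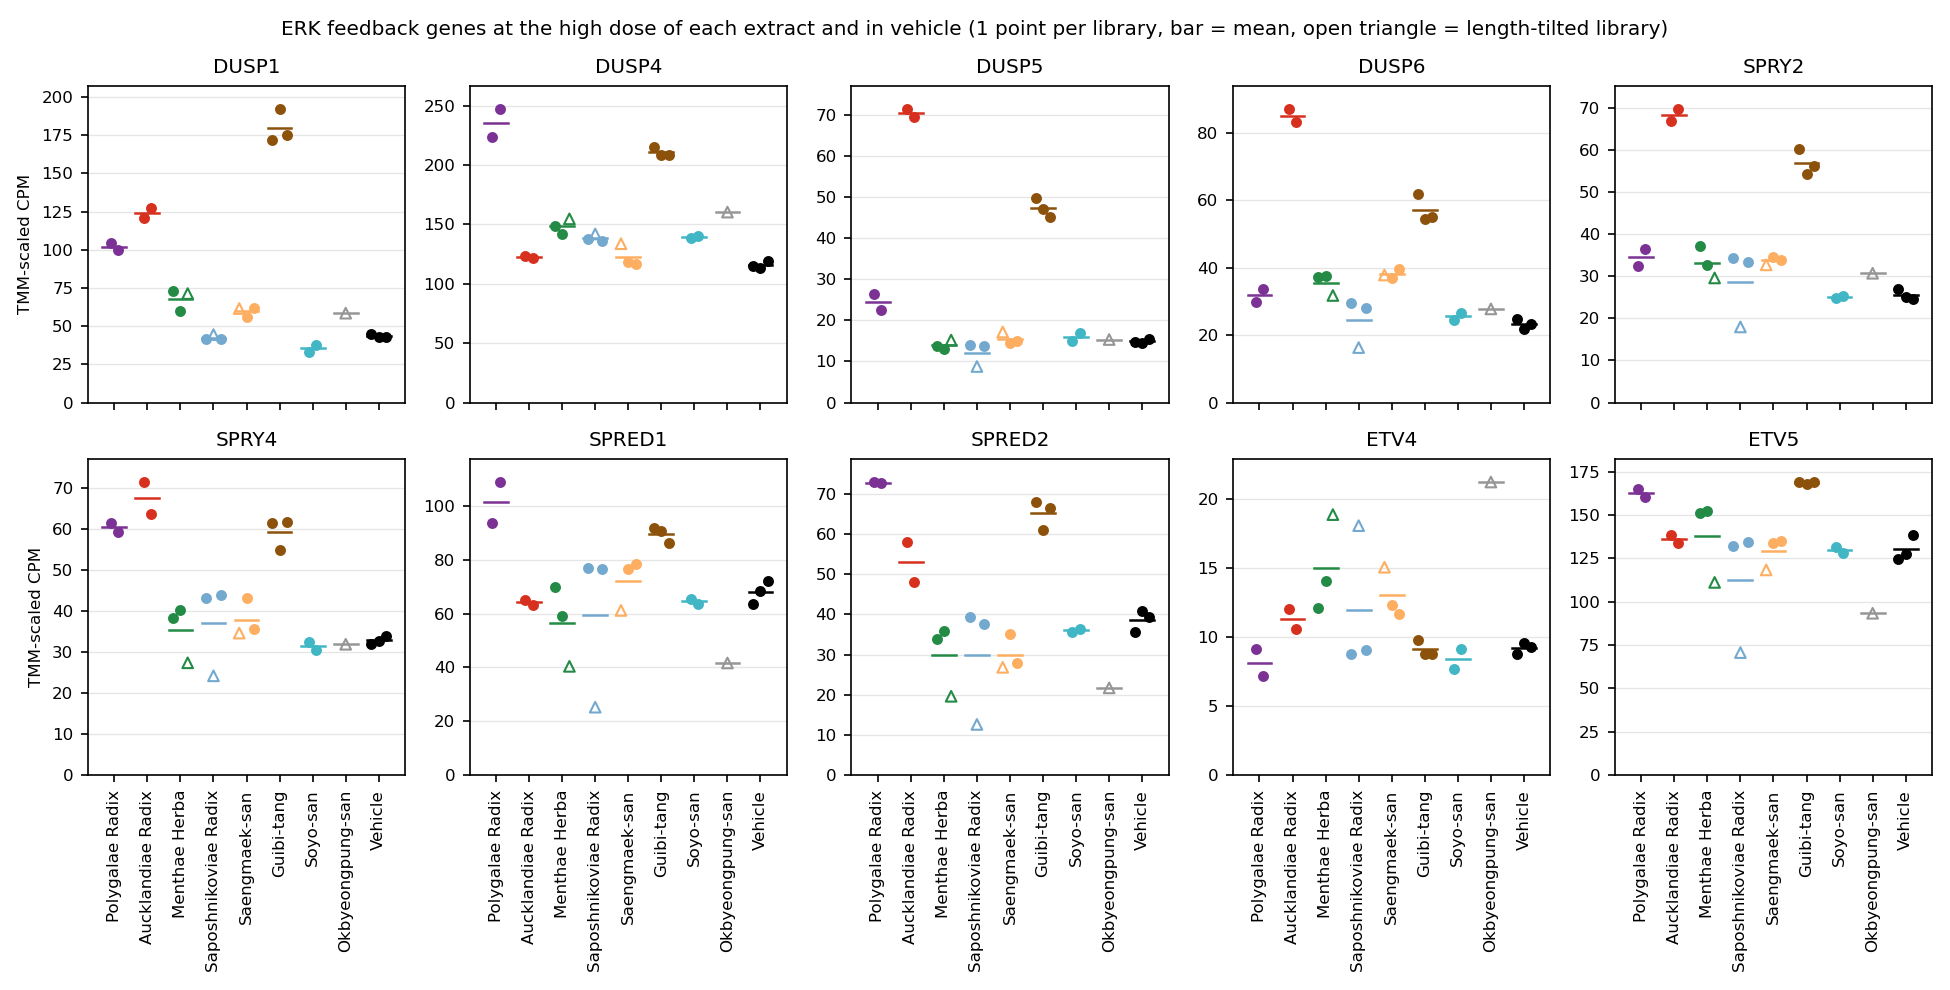
TMM-scaled CPM of each member (y axis, linear, from 0) in every high-dose library of the 8 extracts and in the 3 vehicle libraries at the right. Each point is 1 library, each bar a group mean, and open triangles are length-tilted libraries. Aucklandiae Radix and Guibi-tang stand above all other groups in DUSP1, DUSP5, DUSP6 and SPRY2. In DUSP4, Aucklandiae Radix lies at 122 and 123.1 CPM, close to vehicle.

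DUSP1 encodes the phosphatase MKP-1, an immediate early gene product of the nucleus that acts on ERK, p38 and JNK. The gene (ENSG00000120129, chr5:172768090-172771195, minus strand, GRCh38) was called at the high dose of 6 of the 7 replicated extracts, and its promoter is shown because it was the only one among those searched that held a match to any of 3 motifs. The window is the 250 bases before the RefSeq start, chr5:172771196-172771445 on the minus strand of GRCh38.p14, with the cAMP response element in capitals.

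DUSP1 promoter: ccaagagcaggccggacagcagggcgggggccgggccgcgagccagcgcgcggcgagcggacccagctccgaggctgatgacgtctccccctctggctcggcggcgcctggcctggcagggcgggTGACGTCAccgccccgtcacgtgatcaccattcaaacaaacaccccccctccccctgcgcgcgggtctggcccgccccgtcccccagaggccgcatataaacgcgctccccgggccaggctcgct

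The element TGACGTCA, the letters that CREB-family factors are known to bind, begins 125 bases before the start. Among 35116 windows of the same length in the table, 578 (1.65%) hold it on either strand. The AP-1 motif TGANTCA, present in 6.57% of windows, and the ETS motif CCGGAAG, present in 8.52%, had no match in this window. Entries were found for 6 members (DUSP1, DUSP6, SPRY2, SPRY4, SPRED1 and SPRED2, 9 windows), and the other 8 windows held none of the 3 motifs in these letters. Such a match is a description of the letters only.

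DUSP1 measured 171.6, 191.8 and 174.9 CPM in the 3 Guibi-tang high libraries, against 44.7, 42.8 and 42.8 CPM in vehicle. The 3 treated libraries lay far above every vehicle library, and DUSP1 rose by 2.05 on the log2 scale (4.13-fold, SE 0.07, edgeR adjusted p = 3.2e-24). Aucklandiae Radix high gave 121 and 127.6 CPM, a rise of 1.52 (SE 0.08, edgeR adjusted p = 1.46e-18), and Polygalae Radix high gave 104.3 and 99.8 CPM, a rise of 1.23 (SE 0.08, edgeR adjusted p = 2.11e-16). Smaller rises of 0.65 with Menthae Herba (72.8, 60.2 and 71.3 CPM) and 0.46 with Saengmaek-san (61.5, 55.8 and 61.8 CPM) also passed the test, with edgeR adjusted p of 6.24e-09 and 1.48e-05. Saposhnikoviae Radix high, at 41.4, 44.5 and 41.5 CPM, overlapped vehicle. Soyo-san high was the lowest group at 33.3 and 37.96 CPM, a fall of 0.29 on the log2 scale (edgeR adjusted p = 0.0433). That call ended when any 1 of its 5 libraries was left out, with adjusted p of 0.0771 to 0.598. The 1 library of Okbyeongpung-san high measured 58.5 CPM. By level, the ranges of the 3 strongest groups were apart from each other, while Menthae Herba and Saengmaek-san overlapped, and Okbyeongpung-san lay within the Saengmaek-san range. Within an extract DUSP1 moved mostly at the top dose. Over the 19 low-dose libraries it ran from 36.6 to 48.0 CPM with a median of 40.9 CPM, and over the 19 medium-dose libraries from 35.7 to 63.0 CPM with a median of 41.7 CPM.

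DUSP4 encodes MKP-2, a nuclear phosphatase related to DUSP1 (ENSG00000120875, chr8:29333064-29350668, minus strand). Its order of extracts differed from that of the other 3 phosphatases. It measured 223.1 and 246.7 CPM with Polygalae Radix high, against 115.1, 113.6 and 118.8 CPM in vehicle, a rise of 1.02 on the log2 scale (2.03-fold, SE 0.06, edgeR adjusted p = 3.86e-17). Guibi-tang high, at 214.9, 208.3 and 208.6 CPM, rose by 0.86 (SE 0.06, edgeR adjusted p = 3.32e-16). Both groups lay apart from all others. Aucklandiae Radix high, which was among the strongest for the other phosphatases, measured 123.1 and 122 CPM for DUSP4, with a log2 fold change of 0.08 (95% interval -0.05 to 0.21) that did not pass the test. Its medium dose stood higher, at 136.7 and 147.3 CPM, and was called against vehicle with a log2 fold change of 0.29 (edgeR adjusted p = 0.00363). Smaller rises were called with Menthae Herba (0.36), Saposhnikoviae Radix (0.26) and Soyo-san high (0.27). The Saposhnikoviae Radix call ended without the low-count filter (edgeR adjusted p = 0.154) and when its 2 groups were fitted alone (adjusted p = 0.717), while the log2 fold change stayed at 0.26 and 0.28. The Soyo-san call ended without vehicle replicate 2 or without either of its own libraries, with edgeR adjusted p of 0.0521 to 0.153. These small rises stand beside a low vehicle: the mean of each of the 24 extract and dose groups lay above the vehicle mean of 115.9 ± 2.69 CPM (SD, n = 3), the nearest being Aucklandiae Radix high at 122.5 CPM. Because vehicle is a library-name set of its own, a shift of that set and a shared response to all extracts cannot be told apart.

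DUSP5 encodes a nuclear phosphatase that acts on ERK and not on p38 or JNK (ENSG00000138166, chr10:110497838-110511544, plus strand). It had the widest response, 71.3 and 69.4 CPM in Aucklandiae Radix high, against 14.7, 14.5 and 15.4 CPM in vehicle. That is a rise of 2.24 on the log2 scale (4.73-fold, SE 0.13, edgeR adjusted p = 1.04e-17), the largest of any member in any comparison with vehicle. Guibi-tang high measured 49.8, 47.0 and 45.1 CPM and rose by 1.67 (SE 0.12, edgeR adjusted p = 1.67e-15). Polygalae Radix high, at 26.5 and 22.6 CPM, rose by 0.72 (SE 0.13, edgeR adjusted p = 7.4e-06). These 3 groups were apart from each other and from all the rest. The remaining high-dose groups averaged between 12.2 and 16.0 CPM and none of them was called. Of these, Saposhnikoviae Radix lay below vehicle without overlap (log2 fold change -0.28, edgeR adjusted p = 0.0987). In 16 of 24 extract and dose groups the mean was below the vehicle mean of 14.9 CPM, and no low or medium dose was called for DUSP5. The lowest library was Saposhnikoviae Radix high replicate 2, at 8.77 CPM, beside 14.0 and 13.8 CPM in the other 2 libraries of its group.

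DUSP6 encodes MKP-3, the cytoplasmic phosphatase of ERK and a widely used transcript marker of ERK output (ENSG00000139318, chr12:89347232-89353271, minus strand). Its level in Aucklandiae Radix high was 86.9 and 83.1 CPM, against 24.9, 21.7 and 23.2 CPM in vehicle. Both treated libraries lay far above every vehicle library, with a rise of 1.87 on the log2 scale (3.65-fold, SE 0.13, edgeR adjusted p = 1.01e-14). Guibi-tang high followed with 61.8, 54.3 and 55.2 CPM and a rise of 1.29 (SE 0.12, edgeR adjusted p = 6.96e-12). Saengmaek-san high (37.8, 36.9 and 39.8 CPM) rose by 0.71, and Menthae Herba high (37.3, 37.5 and 31.8 CPM) by 0.61, with edgeR adjusted p of 3.84e-05 and 0.000173, and these groups overlapped each other. Polygalae Radix high, which had the highest DUSP4, was lower for DUSP6, at 29.8 and 33.8 CPM. Its rise of 0.45 (edgeR adjusted p = 0.00471) was lost without its replicate 3, at 0.35 (adjusted p = 0.0957). Saposhnikoviae Radix high was split, with 29.5, 16.3 and 28.1 CPM, the low value being its length-tilted replicate 2. The exons of DUSP6 are covered for 40.5% of their bases by the antisense gene ENSG00000274021, whose highest count in any library was 16, where the median count of DUSP6 was 713.2.

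SPRY2 and SPRY4 encode Sprouty proteins, membrane-associated inhibitors that keep growth factor receptors from activating RAS and RAF. SPRY2 (ENSG00000136158, chr13:80335976-80340951, minus strand) measured 66.9 and 69.6 CPM in Aucklandiae Radix high, against 26.9, 25.1 and 24.6 CPM in vehicle, and rose by 1.42 on the log2 scale (2.67-fold, SE 0.13, edgeR adjusted p = 3.85e-11). In Guibi-tang high SPRY2 stood at 60.3, 54.2 and 56.3 CPM and rose by 1.15 (SE 0.12, edgeR adjusted p = 2.38e-10). Rises of 0.43 with Polygalae Radix, 0.40 with Saengmaek-san and 0.38 with Menthae Herba passed as well, at 34.6 ± 2.89 (SD, n = 2), 33.8 ± 0.95 (SD, n = 3) and 33.2 ± 3.77 CPM (SD, n = 3), against 25.5 ± 1.17 CPM (SD, n = 3) in vehicle. These 3 groups overlapped each other, and each of the 3 calls was lost without 1 library. For Polygalae Radix this was high replicate 3 (0.34, edgeR adjusted p = 0.118), for Saengmaek-san high replicate 3 or vehicle replicate 2 or 3 (adjusted p of 0.0607 to 0.0768), and for Menthae Herba high replicate 1 or vehicle replicate 2 or 3 (adjusted p of 0.0678 to 0.123). In Saposhnikoviae Radix high, 2 libraries stood at 34.4 and 33.3 CPM and the length-tilted replicate 2 at 17.97 CPM. Without that replicate the log2 fold change of SPRY2 was 0.40 (edgeR adjusted p = 0.00836), where it was 0.17 with all 3 libraries (adjusted p = 0.367). SPRY4 (ENSG00000187678, chr5:142310427-142326455, minus strand) was nearly level between the 3 strongest extracts. It had 71.5 and 63.8 CPM in Aucklandiae Radix high, 61.5 and 59.4 CPM in Polygalae Radix high and 61.6, 54.9 and 61.8 CPM in Guibi-tang high, against 32.1, 32.7 and 34.0 CPM in vehicle. The rises were 1.04 (SE 0.17, edgeR adjusted p = 3.42e-06), 0.88 (SE 0.17, adjusted p = 2.78e-05) and 0.85 (SE 0.15, adjusted p = 9.18e-06). The Polygalae Radix and Guibi-tang ranges overlapped, and no other high dose was called for SPRY4.

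SPRED1 and SPRED2 encode Sprouty-related proteins with an EVH1 domain. SPRED1 brings the RAS inhibitor neurofibromin to the membrane, and its loss causes Legius syndrome. SPRED2 (ENSG00000198369, chr2:65310851-65432637, minus strand) measured 72.9 and 72.7 CPM in Polygalae Radix high and 67.9, 61.1 and 66.5 CPM in Guibi-tang high, against 35.6, 40.8 and 39.5 CPM in vehicle. Both rises passed the test, 0.91 (SE 0.24, edgeR adjusted p = 0.0015) and 0.75 (SE 0.22, adjusted p = 0.00356). SPRED1 (ENSG00000166068, chr15:38252326-38357249, plus strand) measured 93.8 and 108.8 CPM in Polygalae Radix high and 91.7, 90.5 and 86.1 CPM in Guibi-tang high, against 63.7, 68.2 and 72.2 CPM in vehicle. The groups did not overlap, but the fitted spread was wide. SPRED1 was called with Polygalae Radix (0.57, SE 0.23, edgeR adjusted p = 0.0406), a call lost without any 1 of the 5 libraries (adjusted p of 0.0537 to 0.233). Guibi-tang gave 0.39 (95% interval -0.03 to 0.82, edgeR adjusted p = 0.12) and was not called, and without the length-tilted libraries it was (0.39, adjusted p = 2.53e-05). With Aucklandiae Radix high SPRED1 stood at 65.1 and 63.1 CPM (log2 fold change -0.09, 95% interval -0.57 to 0.39) and SPRED2 at 57.9 and 48.0 CPM (0.45, 95% interval -0.03 to 0.94), neither called.

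ETV4 and ETV5 encode PEA3-group ETS factors, which carry ERK signals to growth and invasion genes. They did not move together. ETV5 (ENSG00000244405, chr3:186046308-186110318, minus strand) measured 168.9, 167.8 and 169.1 CPM in Guibi-tang high, against 124.9, 127.4 and 138.5 CPM in vehicle, a rise of 0.37 on the log2 scale (1.29-fold, SE 0.13, edgeR adjusted p = 0.0193). The call was lost without vehicle replicate 1 or 2 (adjusted p of 0.0651 and 0.0558). Polygalae Radix high stood nearly as high at 164.8 and 160.6 CPM, with 0.32 (edgeR adjusted p = 0.0734). The Okbyeongpung-san high library, a length-tilted one, lay below vehicle at 93.4 CPM, and the other high-dose groups overlapped vehicle for ETV5. ETV4 (ENSG00000175832, chr17:43527844-43579620, minus strand) rose with Menthae Herba high to 12.1, 14.0 and 18.9 CPM, against 8.78, 9.57 and 9.29 CPM in vehicle (0.70, SE 0.17, edgeR adjusted p = 0.00228). Its highest library there was the length-tilted replicate 3, without which the change was 0.51 (adjusted p = 0.0536). Saengmaek-san high measured 15.1, 12.4 and 11.7 CPM, a rise of 0.50 (edgeR adjusted p = 0.0403) that was lost without its replicate 1 or without any 1 vehicle library (adjusted p of 0.0789 to 0.215). With Guibi-tang high ETV4 stood at 9.77, 8.76 and 8.79 CPM and with Polygalae Radix high at 9.14 and 7.18 CPM, both overlapping vehicle. The Guibi-tang value was -0.02 under TMM and 0.45 when libraries were scaled to their totals (edgeR adjusted p = 0.011), a scaling that moved the median of all genes there by 0.49. Reads of ETV4 share 68 exon bases with DHX8 on the other strand, and those of ETV5 share 164 with DGKG on the same strand, and the strand setting of the counting is not given in the sources used here.

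**Figure D2:**
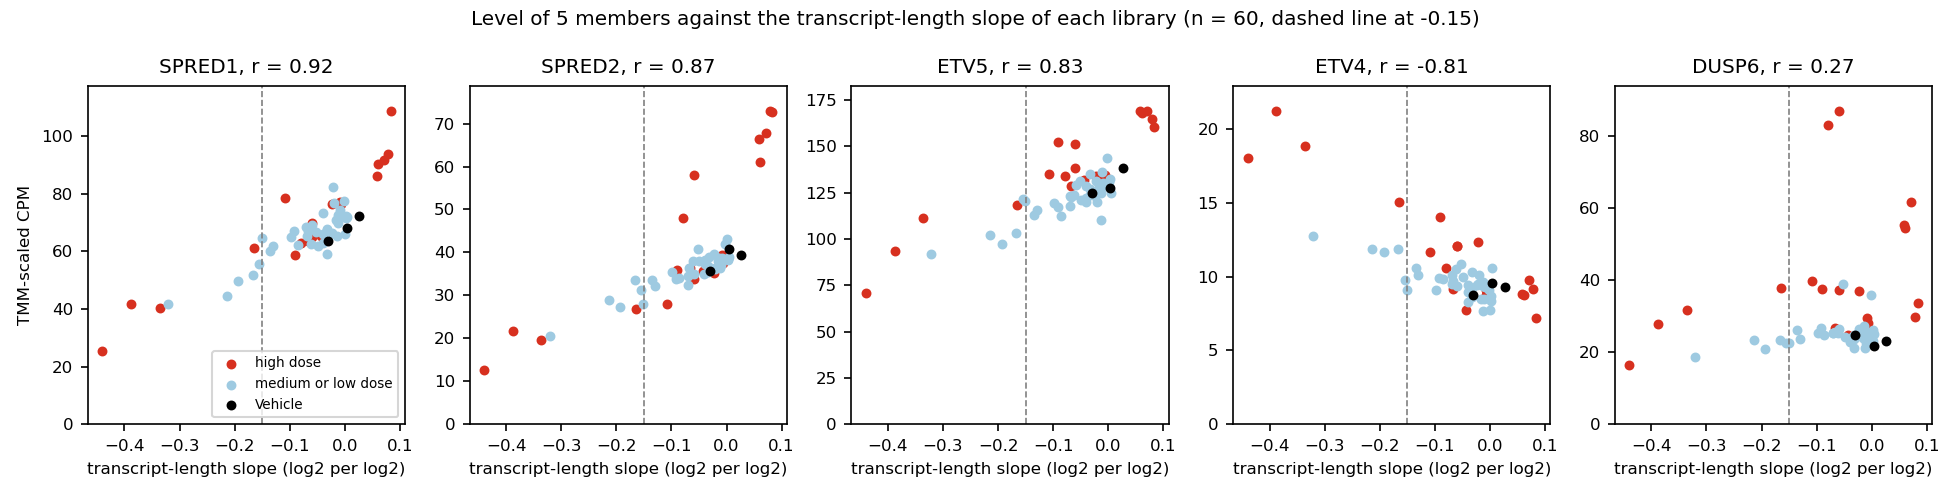
TMM-scaled CPM (y axis, linear, from 0) of SPRED1, SPRED2, ETV5, ETV4 and DUSP6 against the transcript-length slope of the library (x axis, log2 per log2), 1 point per library, n = 60. SPRED1, SPRED2 and ETV5 climb with the slope and ETV4 declines, while DUSP6 shows its highest values at slopes near 0.

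SPRED1, SPRED2, ETV5 and ETV4 moved with the transcript-length slope of the libraries. Over the 60 libraries, which share extract and set, Pearson r of log2 CPM with the slope was 0.92 for SPRED1, 0.87 for SPRED2, 0.83 for ETV5, 0.63 for SPRY4 and -0.81 for ETV4. For DUSP1, DUSP4, DUSP5, DUSP6 and SPRY2 it lay between 0.19 and 0.31. The 5 highest slopes, 0.06 to 0.08, belong to the 3 Guibi-tang high and the 2 Polygalae Radix high libraries, the groups in which SPRED1, SPRED2 and ETV5 were highest, and the next highest slope was 0.03 in a vehicle library. At the other end, Saposhnikoviae Radix high replicate 2 had the lowest level of all 60 libraries for 7 members (DUSP5, DUSP6, SPRY2, SPRY4, SPRED1, SPRED2 and ETV5), with 25.2 CPM for SPRED1 and 12.6 CPM for SPRED2. Okbyeongpung-san high replicate 1 had the highest ETV4, and from low to high dose this extract gave 9.24, 8.93 and 21.2 CPM. The part of the slope in these levels was not tested. In the Polygalae Radix high libraries transcripts of the mitochondrial genome took 19.2% and 11.7% of counts, where all libraries ran between 4.09% and 19.2%.

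Against their own low dose, within a set of library names, Polygalae Radix and Guibi-tang again had the most members called. With Polygalae Radix 9 of 10 members rose, ETV4 being the exception, where 46% of all genes were called and 20.8% were called higher. Guibi-tang had 8 higher, against 51.2% of all genes called and 23.8% called higher, and the 2 not called were SPRED1 and ETV4. Aucklandiae Radix had 5 higher, against 24% called and 10.5% called higher, with DUSP5 at 70.3 CPM in high and 13.7 CPM in low libraries on average, a rise of 2.36 (5.14-fold, SE 0.14, edgeR adjusted p = 2.58e-16). Menthae Herba had DUSP1 (0.74), ETV4 (0.71), DUSP6 (0.53) and DUSP4 (0.19) higher, against 15.6% called and 6.33% called higher. Of these the calls of ETV4 and DUSP4 were lost without high replicate 3 (edgeR adjusted p = 0.0675 and 0.115), and that of DUSP4 also without low replicate 2 (adjusted p = 0.128). Saengmaek-san had DUSP6 (0.66, SE 0.12, edgeR adjusted p = 0.000289) and DUSP1 (0.49, SE 0.07, adjusted p = 1.18e-05) higher, against 5.7% called and 2.41% called higher. Saposhnikoviae Radix and Soyo-san had 0 members called by edgeR, where 0.377% and 0.496% of all genes were called. At an unadjusted p under 0.05 each had 1 member, and DESeq2 called 0 in both. The Saposhnikoviae Radix count rested on 1 library: without its high replicate 2, a length-tilted one, 6 members were called. DUSP6 at 0.41, SPRY2 at 0.40, SPRY4 at 0.47, SPRED1 at 0.57 and ETV5 at 0.35 were higher and ETV4 at -0.39 lower (edgeR adjusted p of 0.00939 to 0.0461). The share of all genes called in that fit is not given here, so the count of 6 is not read as a result about the members. For Polygalae Radix, leaving out a library of either dose lowered the count of 9. The share of all genes called in those fits is not given here, so the lower counts are no result about the members. The calls that could be lost were those of DUSP6, SPRY2, SPRY4, SPRED1 and ETV5, whose edgeR adjusted p reached 0.0755 to 0.248, while DUSP1, DUSP4, DUSP5 and SPRED2 were called throughout.

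**Figure D3:**
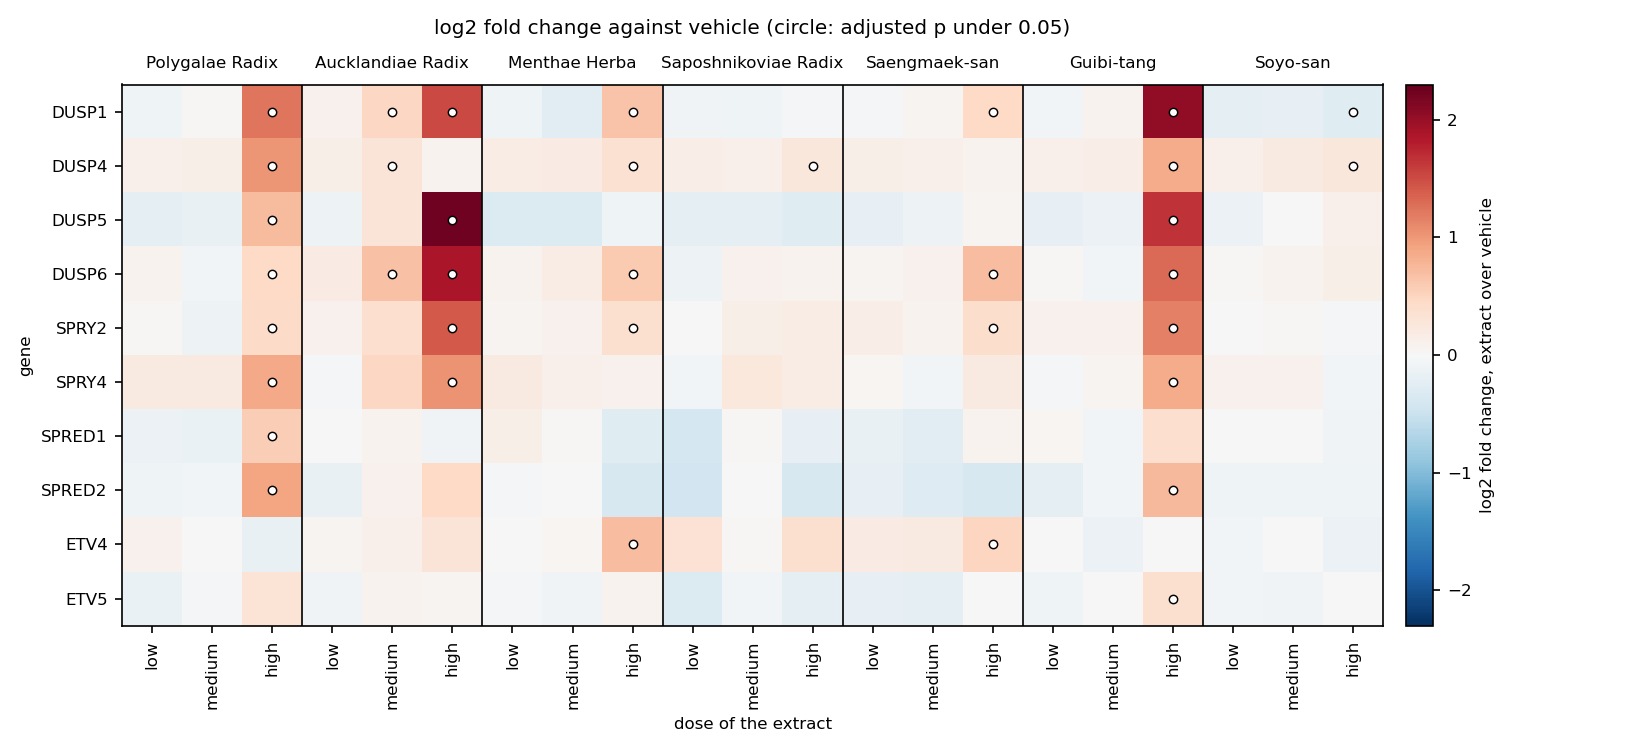
log2 fold change against vehicle (colour, red higher in the extract, blue lower) of each member (rows) at the low, medium and high dose of 7 extracts (columns). Circles mark an edgeR adjusted p under 0.05. Calls stand almost wholly in the high-dose columns, and the 3 at a medium dose are DUSP1, DUSP4 and DUSP6 with Aucklandiae Radix.

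Below the high dose few members and few of all genes were called. Over 10 members and 7 extracts, 3 of the 70 medium-dose values were called, where 3.14% of all genes were called over the same comparisons. This count over the 7 extracts is near that share, so it is no result about the members. At an unadjusted p under 0.05 there were 13, 10 of them higher, and DESeq2 called 6. Without the length-tilted libraries or with the compared groups fitted alone, 12 were called. The shares of all genes under these rules and fits are not given here, so these counts are no result about the members. All 3 calls of the main edgeR fit belong to Aucklandiae Radix, in which 4.18% of all genes were called at the medium dose. DUSP6 rose by 0.68 on the log2 scale, at 38.9 and 35.7 CPM, against 24.9, 21.7 and 23.2 CPM in vehicle (SE 0.13, edgeR adjusted p = 0.00125). DUSP1 rose by 0.48, at 57.9 and 63.0 CPM (SE 0.08, edgeR adjusted p = 0.000195), and DUSP4 by 0.29. From 6.4 to 32 to 160 µg/mL of Aucklandiae Radix, DUSP6 averaged 26.6, 37.3 and 85.0 CPM, DUSP5 13.7, 18.3 and 70.3 CPM, SPRY2 27.5, 33.5 and 68.3 CPM and SPRY4 32.3, 45.5 and 67.7 CPM, each higher at each step of dose, although the medium doses of DUSP5, SPRY2 and SPRY4 were not called against vehicle. DUSP4 averaged 127.2, 142.0 and 122.5 CPM over the same doses, with its highest value in the middle. Guibi-tang behaved as a step at its top dose: DUSP1 averaged 41.8, 46.0 and 179.4 CPM and DUSP5 13.1, 13.5 and 47.3 CPM at 20, 100 and 500 µg/mL. At the low dose 0 of 70 values were called by edgeR, where 3.9% of all genes were called, while 8 had an unadjusted p under 0.05, 5 of them higher, and DESeq2 called 2. Without Saposhnikoviae Radix low replicate 1, 2 low-dose values were called, and 3 with the compared groups fitted alone. The shares of all genes called in these alternatives are not given here, so their counts are no result about the members. Okbyeongpung-san, with 1 library a dose, was compared with vehicle over its 3 doses together. DUSP4 was called higher, at 131.8, 131.7 and 160.3 CPM from low to high dose, against 115.1, 113.6 and 118.8 CPM in vehicle (0.28, SE 0.06, edgeR adjusted p = 0.00123), where 11.5% of all genes were called. The count of 1 member of 10 is near the 11.5% of all genes called. Without the length-tilted high-dose library the DUSP4 value was 0.18 (edgeR adjusted p = 0.281), and without the medium or the low library 2 members were called. The shares of all genes called in those fits are not given here, so none of these counts is a result about the members.

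**Figure D4:**
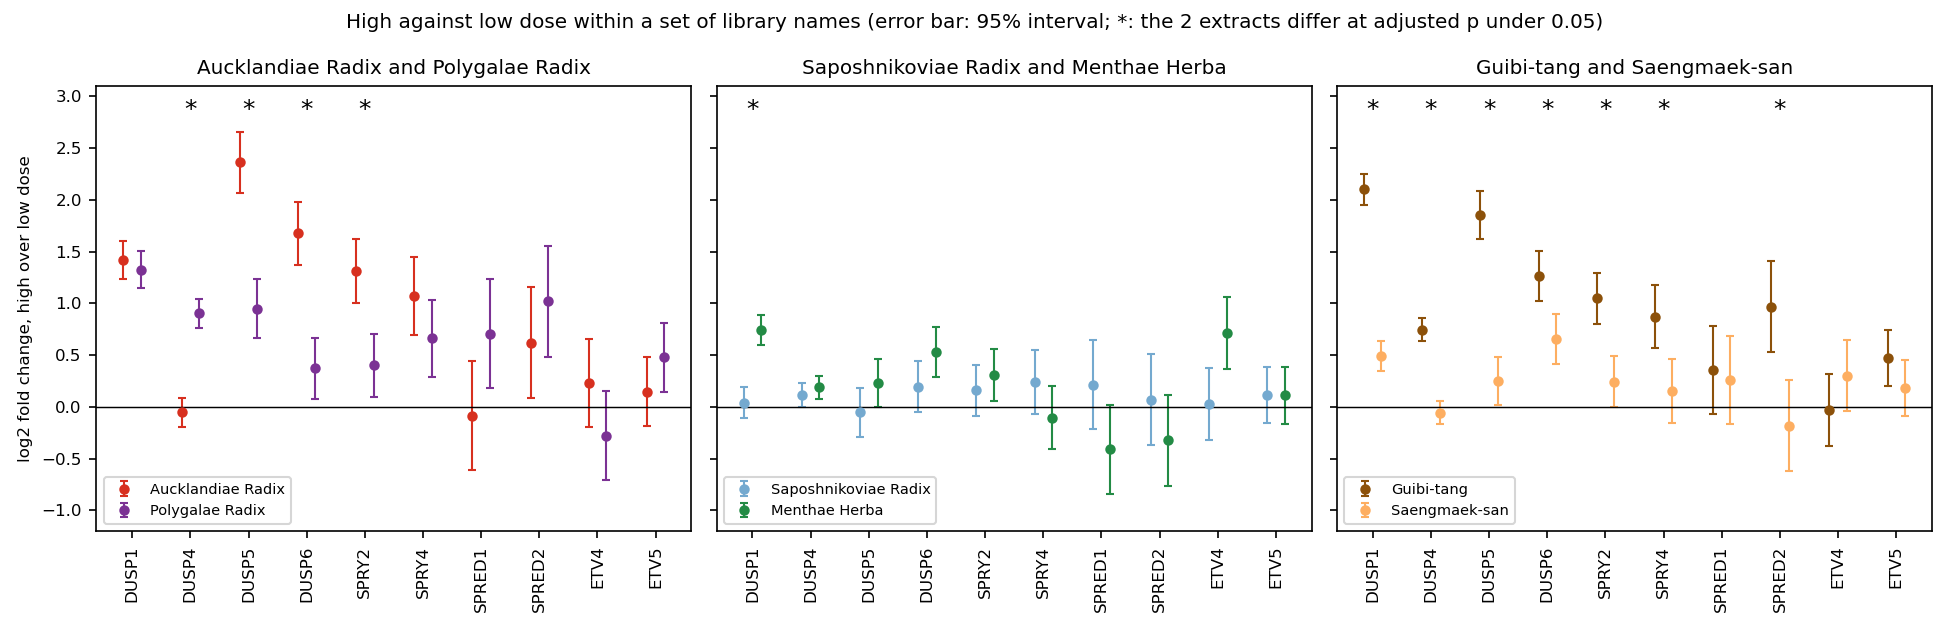
log2 fold change of the high over the low dose (y axis) of each member (x axis) for the 3 pairs of extracts that share a set of library names. Points are fitted values, bars 95% intervals, and asterisks mark members whose response differed between the 2 extracts at an edgeR adjusted p under 0.05, 4 in the first pair, 1 in the second and 7 in the third.

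Extracts of a shared library-name set were compared by the difference of their high-minus-low responses. Between Aucklandiae Radix and Polygalae Radix 4 of 10 members differed, which is near the 33.9% of all genes that did, so the count itself is no result about the members. DUSP5 rose more with Aucklandiae Radix, 2.36 against 0.95 with Polygalae Radix, a difference of 1.41 (SE 0.20, edgeR adjusted p = 2.8e-07). DUSP6 rose by 1.68 with Aucklandiae Radix and 0.37 with Polygalae Radix (difference 1.303, SE 0.21, edgeR adjusted p = 2.91e-06), and SPRY2 by 1.31 and 0.40 (difference 0.91, SE 0.21, adjusted p = 0.000711). DUSP4 went the other way, -0.05 with Aucklandiae Radix and 0.91 with Polygalae Radix (difference -0.96, SE 0.10, edgeR adjusted p = 2.12e-10). DUSP1 did not differ at the threshold (difference 0.09, 95% interval -0.16 to 0.34), nor did SPRY4 (0.40, 95% interval -0.12 to 0.93). Without the length-tilted libraries 9 members differed, and the share of all genes that differed in that fit is not given here. Under library totals the SPRY2 difference was 0.57 (edgeR adjusted p = 0.0654).

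Guibi-tang exceeded Saengmaek-san in 7 members, where 34.9% of all genes differed and 15% were higher. The differences were 1.61 for DUSP1 (SE 0.10, edgeR adjusted p = 4.83e-16), 1.60 for DUSP5 (SE 0.16, adjusted p = 1.69e-10), 1.15 for SPRED2 (SE 0.31, adjusted p = 0.00281) and 0.61 to 0.81 for DUSP4, DUSP6, SPRY2 and SPRY4. DUSP6 differed by 0.61 (SE 0.17, adjusted p = 0.00395), the smallest of the 7. SPRED1 (0.10, 95% interval -0.51 to 0.70), ETV4 and ETV5 were not called. Between Saposhnikoviae Radix and Menthae Herba DUSP1 differed, with 0.04 for Saposhnikoviae Radix and 0.74 for Menthae Herba (difference -0.70, SE 0.10, edgeR adjusted p = 5.32e-06), and 1 member of 10 is near the 11.5% of all genes that differed. Fitted on those 4 groups alone, the DUSP1 difference was -0.70 with an adjusted p of 0.126, and without Saposhnikoviae Radix high replicate 2 the count of members that differed was 5. Without Menthae Herba high replicate 1 or Saposhnikoviae Radix low replicate 1 it was 2. The shares of all genes that differed in these fits are not given here, so these counts are no result about the members. Without Saposhnikoviae Radix high replicate 2 the ETV4 difference was -1.10 (adjusted p = 3.85e-05), against -0.68 (adjusted p = 0.0617) with all libraries.

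Some members tracked each other closely and others did not, without a clean split. Over the 60 libraries Pearson r of log2 CPM was 0.95 between DUSP6 and SPRY2, 0.91 between DUSP5 and SPRY2, 0.89 between DUSP5 and DUSP6 and 0.88 between DUSP1 and DUSP5. DUSP4 tracked DUSP1 most closely, at 0.71 over all libraries and 0.58 over the 19 high-dose libraries, and had 0.52 to SPRY4, 0.50 to DUSP5 and 0.40 to DUSP6, the last being 0.04 over the high-dose libraries. SPRED1, SPRED2 and ETV5 formed a second group (0.84 to 0.87 between them), and ETV4 ran against it, with -0.71 to SPRED1. SPRY4 tracked both groups, with 0.81 to SPRY2 and 0.79 to DUSP5, and 0.85 to SPRED2, 0.745 to ETV5 and 0.65 to SPRED1. These points share extract, dose, set and length slope, so r describes them and carries no test. Of the 11389 genes screened, which averaged 2 or more on the log2 CPM scale, the closest to DUSP6 was THBD (r = 0.93), followed by RFFL, MARK3, GSAP and SH3YL1 (0.88 to 0.90). RFFL was also the closest to DUSP5 (0.93), ahead of KCNC4, THBD, BCAR3 and HUS1 (0.90 to 0.92). CSGALNACT2 was the closest to SPRY4 (0.91), followed by ELK3, ZNF267, PTK2 and SPIRE1 (0.89 to 0.90). ZXDB was the closest to ETV5 (0.95), with ZBTB21, RBSN, PLEKHA8 and ZMYM2 at 0.94 to 0.95. Levels between members, per kilobase of the longest coding transcript in GENCODE 29, ordered the vehicle libraries as ETV5 (31.7 CPM per kb), DUSP1 (21.5), DUSP4 (20.9), SPRY2 (9.44), SPRED2 (9.43), SPRED1 (8.75), SPRY4 (6.67), DUSP5 (5.81), DUSP6 (5.29) and ETV4 (3.79). SPRY2 and SPRED2 did not differ beyond their spread of 0.43 and 0.66 CPM per kb (SD, n = 3), nor did DUSP1 and DUSP4 (0.54 and 0.49 CPM per kb).

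Around the members, other genes of the pathway moved in mixed directions. Of 12 tested receptors, 9 fell and 0 rose with Menthae Herba high, where 11.7% of all genes were called lower. With Aucklandiae Radix 7 fell and 0 rose, where 17% of all genes were called lower. With Polygalae Radix 7 fell and 2 rose, where 25.6% were called lower, and with Guibi-tang 6 fell and 1 rose, where 26.6% were called lower. With Saengmaek-san 6 fell and with Saposhnikoviae Radix 4, where 17.4% and 12.7% of all genes were called in either direction. The median log2 fold change of the receptors was -1.02 with Menthae Herba, where that of all genes was 0.03. Against their own low dose, within a set, 8 receptors fell and 0 rose with Menthae Herba and 5 fell and 1 rose with Aucklandiae Radix. With Guibi-tang 5 fell and 1 rose, and with Polygalae Radix 3 fell and 2 rose. Of all genes, 15.6%, 24%, 51.2% and 46% were called there in either direction. Taken in either direction, the counts with Guibi-tang and Polygalae Radix are near these shares, so they are no result about the receptors. With Saengmaek-san and Saposhnikoviae Radix 0 fell, where 5.7% and 0.377% of all genes were called. The part of the vehicle set in the falls was not tested. AXL, a TAM-family receptor tyrosine kinase, fell by 2.19 on the log2 scale with Polygalae Radix (176.7 ± 15.8 CPM, SD, n = 2) and by 2.00 with Guibi-tang (201.6 ± 8.41 CPM, SD, n = 3), against 804.2 ± 49.6 CPM in vehicle (SD, n = 3). PDGFRB, the receptor for platelet-derived growth factor B, fell by 1.90 and 1.65 in the same extracts. EGFR and MET fell by 1.503 and 1.486 with Menthae Herba, at 125 ± 68.1 and 301 ± 143 CPM (SD, n = 3), where the wide spread includes the length-tilted replicate 3. Of 15 tested ligands, 5 rose and 3 fell with Aucklandiae Radix, 6 rose and 5 fell with Guibi-tang, 3 rose and 5 fell with Polygalae Radix, and 1 rose and 7 fell with Menthae Herba. Of all genes, 32.7%, 50.2%, 48% and 22.8% were called in either direction in these comparisons, so the ligand count with Polygalae Radix is near the share of all genes. HBEGF, a ligand of the EGF receptor, rose by 1.77 with Aucklandiae Radix (95.01 ± 7.69 CPM, SD, n = 2), against 27.9 ± 1.075 CPM in vehicle (SD, n = 3), and FGF5 rose by 1.29 with Guibi-tang and 1.21 with Polygalae Radix.

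Of 18 tested genes of the RAS, RAF, MEK and ERK cascade, 5 rose and 6 fell with Polygalae Radix, 4 rose and 6 fell with Guibi-tang and 1 rose and 2 fell with Aucklandiae Radix. The counts with Polygalae Radix and Guibi-tang are near the 48% and 50.2% of all genes called, and that with Aucklandiae Radix is below the 32.7% called there, so they are no result about the cascade. MAP2K1, which encodes the ERK kinase MEK1, fell by 1.13 with Polygalae Radix, and FRS2, the adaptor of FGF receptors, rose by 1.18 there and by 1.18 with Guibi-tang. Among 13 further transcripts of the ERK output, 9 rose and 2 fell with Aucklandiae Radix (median 1.01), where 15.7% of all genes were called higher. With Guibi-tang 5 rose and 2 fell, and with Polygalae Radix 2 rose and 5 fell (median -0.06). Of all genes, 23.6% and 22.4% were called higher in these 2 extracts. Taken in either direction, the 2 counts are near the 50.2% and 48% of all genes called, so they are no result about the list. LIF, a cytokine gene, rose by 2.14 with Guibi-tang, 2.01 with Polygalae Radix and 1.74 with Aucklandiae Radix, and PHLDA1 rose by 2.02 with Guibi-tang and 1.52 with Polygalae Radix. ETV1, the other PEA3-group factor, fell by 1.79 with Aucklandiae Radix, at 20.3 ± 1.84 CPM (SD, n = 2), against 70.3 ± 4.48 CPM in vehicle (SD, n = 3). The other tested MAPK phosphatases rose in 4 of 4 with Guibi-tang and 3 of 4 with Polygalae Radix. Of all genes, 23.6% and 22.4% were called higher there, and 50.2% and 48% in either direction. DUSP8, which acts on JNK and p38, rose by 2.296 with Polygalae Radix and DUSP16 by 1.32. With Aucklandiae Radix 0 of these phosphatases rose and 2 fell, where 17% of all genes were called lower. Of 14 other inhibitors of the pathway, 4 rose and 2 fell with Polygalae Radix, 4 rose and 3 fell with Guibi-tang and 2 rose and 2 fell with Aucklandiae Radix, counts near the 48%, 50.2% and 32.7% of all genes called. PEBP1, the RAF kinase inhibitor protein, fell by 1.63 with Polygalae Radix and 1.39 with Guibi-tang, and ERRFI1, which binds and inhibits the EGF receptor, rose by 1.34 with Polygalae Radix.

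**Figure D5:**
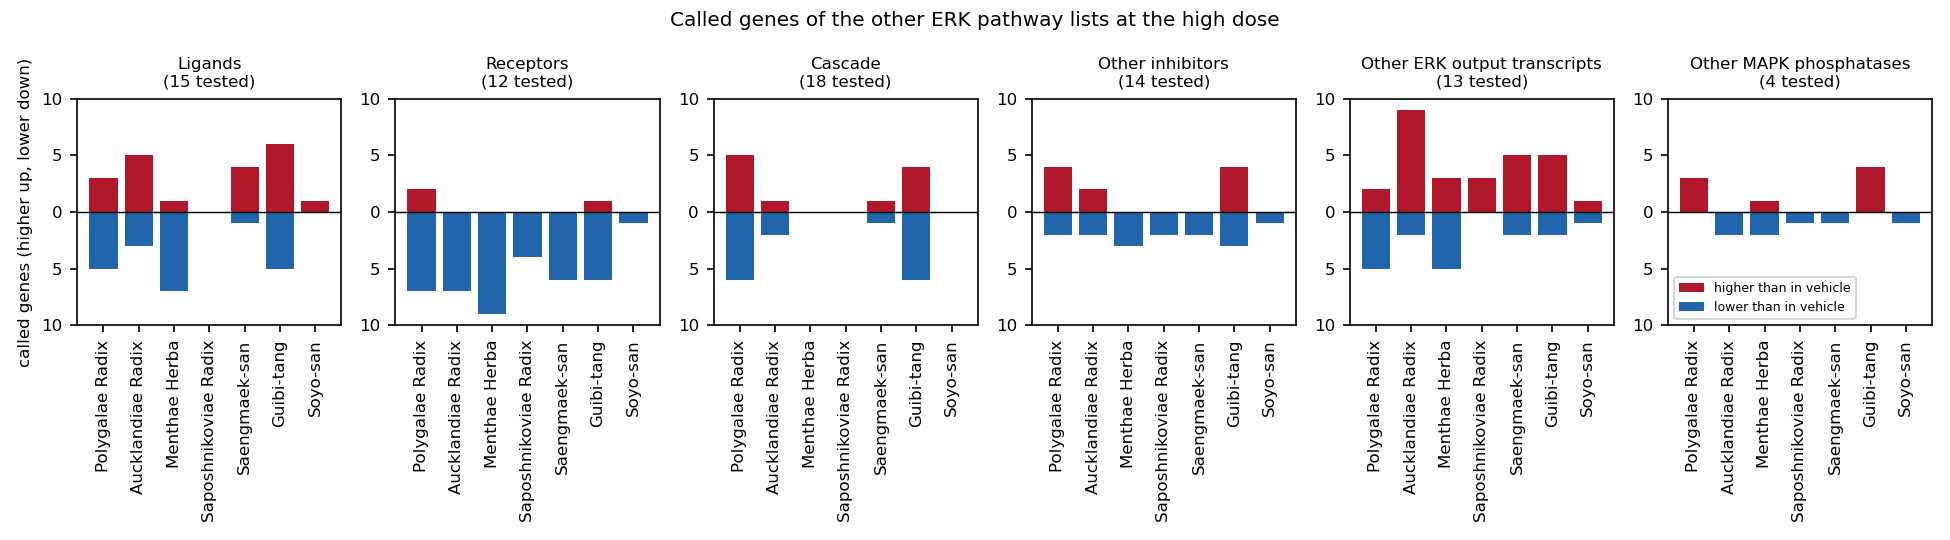
Number of genes called at an edgeR adjusted p under 0.05 in 6 other lists of the ERK pathway (panels) at the high dose of 7 extracts (x axis), higher than vehicle upward in red and lower downward in blue. Receptors were called mostly lower, 9 of 12 with Menthae Herba, and the further output transcripts mostly higher with Aucklandiae Radix, 9 of 13.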

How the data were processed

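Messenger RNA of SW1783 cells was read by paired-end sequencing of directional libraries. The deposited table holds expected counts per Ensembl gene. Per the submitters' processing notes it was made with FastQC 0.11.9, Trim Galore 0.6.5, STAR 2.7.3a and RSEM 1.3.3 on GRCh38. Expected counts were rounded to whole numbers, and genes were kept by edgeR's filter (minimum count 10, minimum total 15), which left 19366 genes. All 60 libraries entered 1 fit with a mean per group (R 4.3.3, edgeR 4.0.16, limma 3.58.1, TMM factors, robust quasi-likelihood, 35 residual degrees of freedom), and p-values were adjusted by Benjamini-Hochberg over all genes of a comparison with a threshold of 0.05. Comparisons were each high, medium and low dose with vehicle, high with low dose, and the difference of high-minus-low responses between extracts of a library-name set. Correlations used log2 CPM with a prior count of 2. The method was tested on simulated data. All 10 members were named. Of each other list, up to 2 called genes per extract with the largest change and a mean log2 CPM of at least 2 could be named. The members and lists were chosen with earlier results of these data known. Alternatives were DESeq2 1.42.0 (an adjusted p given as NA stayed NA), RLE factors, fits of only the groups compared, a block for the replicate number, no filter, leaving out each library and leaving out the length-tilted libraries. Library totals without scaling factors and a crossed block for Soyo-san were chosen after seeing the data. Totals of 19031094 to 37686975 counts per library set the precision, and no member fell below 175 counts.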

Additional observations from a re-analysis of the deposited data

Results flagged for a closer look

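In 12 results, which cover 7 of the 10 members over 3 pairs of extracts, the response differed between extracts that share a set of library names, by edgeR's test of the difference of the high-minus-low log2 changes. In the order below, 4, 1 and 7 of 10 members differed, where 33.9%, 11.5% and 34.9% of all genes did. The counts of 4 and 1 are near these shares. For Aucklandiae Radix and Polygalae Radix the doses differ as well as the extracts. For Aucklandiae Radix minus Polygalae Radix the difference was -0.96 for DUSP4 (adjusted p = 2.12e-10), 1.41 for DUSP5 (adjusted p = 2.8e-07), 1.303 for DUSP6 (adjusted p = 2.91e-06) and 0.91 for SPRY2 (adjusted p = 0.000711). For Saposhnikoviae Radix minus Menthae Herba it was -0.70 for DUSP1 (edgeR adjusted p = 5.32e-06), a call lost when the compared groups were fitted alone (edgeR adjusted p = 0.126). For Guibi-tang minus Saengmaek-san it was 1.61 for DUSP1 (edgeR adjusted p = 4.83e-16), 0.80 for DUSP4 (adjusted p = 1.05e-10), 1.60 for DUSP5 (adjusted p = 1.69e-10), 0.61 for DUSP6 (adjusted p = 0.00395), 0.81 for SPRY2 (adjusted p = 0.000253), 0.72 for SPRY4 (adjusted p = 0.00726) and 1.15 for SPRED2 (adjusted p = 0.00281).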

How the results depend on the processing

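Of 180 single-member results 74 were called, and all 74 were called with RLE factors, the replicate block, DESeq2 and without the length-tilted libraries. No low-count filter lost 12 of them, the compared groups alone 6, library totals 2 and leaving out single libraries 18. No comparison met the rule for pairing replicates by number, the replicate block changed no count of members, and crossing the Soyo-san low numbers in the block gave 0 calls. Library totals turned ETV4 with Guibi-tang to 0.45 against vehicle and 0.36 against low, and leaving out Saposhnikoviae Radix high replicate 2 turned its ETV4 change against low to -0.39 (-0.39 to 0.21 over its left-out libraries), and the cause was not tested. Member counts below that stand without a share of all genes are no result about the members. Without the low-count filter 0 members were called with Saposhnikoviae Radix, 2 with Saengmaek-san, 0 with Soyo-san and 0 with Okbyeongpung-san. Of 38007 genes in that fit, 830 were called with Saposhnikoviae Radix, 1940 with Saengmaek-san and 174 with Soyo-san, at the high dose against vehicle. With the compared groups alone 3 were called with Menthae Herba against vehicle and 2 against low, 0 with Saposhnikoviae Radix, 6 with Okbyeongpung-san, 8 for Aucklandiae Radix minus Polygalae Radix, 0 for Saposhnikoviae Radix minus Menthae Herba, and 12 at medium and 3 at low dose. Of all genes, the compared groups alone called 1821 of 16028 with Menthae Herba high against vehicle. With Saposhnikoviae Radix high against vehicle they called 0 of 15963. Library totals gave 1 member with Soyo-san, where 809 of 19366 genes were called. They gave 2 members for Saposhnikoviae Radix minus Menthae Herba and 5 at medium dose. DESeq2 gave 6 at medium and 2 at low dose. Without the length-tilted libraries 4 were called with Saposhnikoviae Radix, 9 for Aucklandiae Radix minus Polygalae Radix, 4 for Saposhnikoviae Radix minus Menthae Herba, 12 at medium and 2 at low dose. Leaving out 1 library gave, against vehicle, 5 to 7 with Polygalae Radix, 1 to 3 with Saposhnikoviae Radix, 2 to 4 with Saengmaek-san, 0 to 1 with Soyo-san and 0 to 2 with Okbyeongpung-san. Against low dose it gave 4 to 8 with Polygalae Radix, 2 to 4 with Menthae Herba and 0 to 6 with Saposhnikoviae Radix, and 1 to 5 for Saposhnikoviae Radix minus Menthae Herba and 0 to 2 over the low doses.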
